A study of Mus musculus with 6 samples.

Results

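Keratin-associated proteins are the matrix proteins of hair. The genes examined were all those in the deposited count table whose Ensembl identifier maps, in the GENCODE M21 annotation of GRCm38, to a mouse symbol starting with Krtap. This gave 57 of 45513 identifiers, out of 58 such symbols in the annotation. The table held RNA-seq counts per gene from keratinocytes isolated from mouse epidermis, 3 knockout and 3 control mice, all on a C57BL/6 background. The knockout mice were Lama3flox/flox/K14-CreERT, with loxP sites around exons 50 to 53 of Lama3, the alpha chain of laminin 332. The controls were Lama3wt/flox / K14-CreERT by the design text, although their genotype label reads wild type, so by the design text both groups carried the same Cre and at least a single floxed allele. Cre was activated with chow holding 400 mg tamoxifen citrate per kg. By the design text the keratin 14 promoter drives this Cre in basal keratinocytes and the laminin was lost progressively, neither of which was measured here. The sources used here do not give the age and sex of the mice, the time on tamoxifen, the stage of the hair cycle or how much of the follicle the isolated cells included.

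Total counts lay between 20126395 and 28473479 per library. Lama3 itself stood at 97.3, 98.9 and 79.2 CPM (counts scaled to library size by edgeR) in the knockouts and at 141, 142 and 114 CPM in the controls, a log2 fold change of -0.53 (SE 0.14, adjusted p = 0.0215 by edgeR's quasi-likelihood test). This count covers the whole gene, while the floxed exons are a small part of it. The basal keratinocyte keratins Krt5 and Krt14 averaged 7349 ± 1297 and 4719 ± 614 CPM in the knockouts and 8174 ± 1364 and 4247 ± 511 CPM in the controls (SD, n = 3 each), so the defining markers of the labelled cell type were abundant in every group.

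The hair shaft is built from keratin intermediate filaments that lie in a matrix of keratin-associated proteins, and disulfide bonds link the matrix to the filaments. The genes are expressed late, by cells that leave the hair matrix in the bulb and harden into cortex and cuticle. They fall into 3 classes by composition. The high glycine-tyrosine proteins are small and rich in those residues, while the high sulfur and ultra-high sulfur proteins are rich in cysteine. The mouse genes are short and stand in tandem clusters of related copies.

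Here the class of each gene was taken from its annotated coding sequence. A gene with more than 30% cysteine codons was placed in the ultra-high sulfur class, and of the others a gene with at least 25% glycine and tyrosine codons in the high glycine-tyrosine class. The second threshold was set after the codon shares were seen, so that Krtap7-1 (29.9%) stood in its usual class, and Krtap15 (24.0%) lay just outside it. The high sulfur class took in what was left, including genes with few cysteine codons such as Krtap15 (4.0%). This gave 16 high glycine-tyrosine, 20 high sulfur and 20 ultra-high sulfur genes. Krtap19-9a, annotated as a processed pseudogene, has no coding sequence and was left without a class. The genes stood in 5 places. On chromosome 16 there were 25 between 88610705 and 89571183, and on chromosome 11 there were 23 between 99550130 and 99993994. Chromosome 7 held 5, between 142174535 and 142304594, chromosome 10 held Krtap10-4 and Krtap12-1, and chromosome 1 held Krtap28-10 and Krtap28-13 (GRCm38).

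A RefSeq promoter window of GRCm38.p6 was matched by symbol for 51 of the 57 genes. Within the 50 bases before the annotated start, 34 of these 51 (66.7%) held the letters TATAAA on the gene's strand, against 2.88% of the 27025 promoter windows of all genes. The distance from the first T of the match to the start lay between 27 and 49 bases. The 80 bases before the start are shown, with TATAAA in capitals, for 3 genes that were at or near 0 in the knockouts (Krtap8-1, Krtap11-1 and Krtap3-1) and for the 3 that kept counts there (Krtap3-2, Krtap3-3 and Krtap17-1), each read 5′ to 3′ on the gene's strand.
Krtap8-1, chr16:89487953-89488032 (minus strand): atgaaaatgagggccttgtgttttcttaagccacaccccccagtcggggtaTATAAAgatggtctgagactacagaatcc
Krtap11-1, chr16:89571184-89571263 (minus strand): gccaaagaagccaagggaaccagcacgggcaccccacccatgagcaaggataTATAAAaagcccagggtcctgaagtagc
Krtap3-1, chr11:99566631-99566710 (minus strand): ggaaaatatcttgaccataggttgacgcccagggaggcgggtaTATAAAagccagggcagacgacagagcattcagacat
Krtap3-2, chr11:99556854-99556933 (minus strand): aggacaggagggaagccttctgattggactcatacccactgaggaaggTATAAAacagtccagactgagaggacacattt
Krtap3-3, chr11:99550864-99550943 (minus strand): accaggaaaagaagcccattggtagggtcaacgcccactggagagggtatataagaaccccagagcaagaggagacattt
Krtap17-1, chr11:99993995-99994074 (minus strand): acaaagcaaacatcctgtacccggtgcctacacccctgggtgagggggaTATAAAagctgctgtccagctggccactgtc
All but Krtap3-3 held the exact match, and its window has no TATAAA within these 80 bases. It does hold TATATAAG, a near match that the search for exact letters did not count. In windows of 250 bases before the start and on both strands, TATAAA was present in 41 of 51 genes (13.0% of all windows). The homeobox core TAATTG was present in 15 of 51 (7.34% of all windows), CTTTGA, a core of Lef1 and TCF sites, in 12 of 51 (14.0%), and TTTACG, a core of Hoxc13 sites, in 1 of 51 (2.73%). These are matches of letters only.

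Most genes of the family had no count in the knockout libraries. Counts were found for 52 of the 57 genes, while Krtap5-2, Krtap5-3, Krtap9-5, Krtap13 and Krtap31-2 had none in any library. At least 1 count was present for 9, 6 and 4 genes in knockouts 1, 2 and 3, against 46, 51 and 47 genes in controls 1, 2 and 3. With every library thinned to 20126395 counts these numbers were 8, 6 and 4 in the knockouts and 45, 51 and 44 in the controls, so the difference was much the same at equal depth. In the knockouts 3 genes had a count in all 3 libraries, and in the controls 40 did. No gene had counts in the knockouts alone.

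For 41 genes the 3 knockout libraries together held no count at all. Of all 10980 identifiers whose control counts summed to the same range, 2 to 480, 820 (7.47%) had no count in any knockout library. With at least 20 control counts, a threshold chosen after the counts were seen, the same held for 16 of 25 family members and for 40 of 5609 identifiers in all (0.713%). Thus 16 of those 40 identifiers were keratin-associated protein genes. In bulk RNA, fewer cells of a type and less RNA per cell cannot be told apart.

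**Figure D1:**
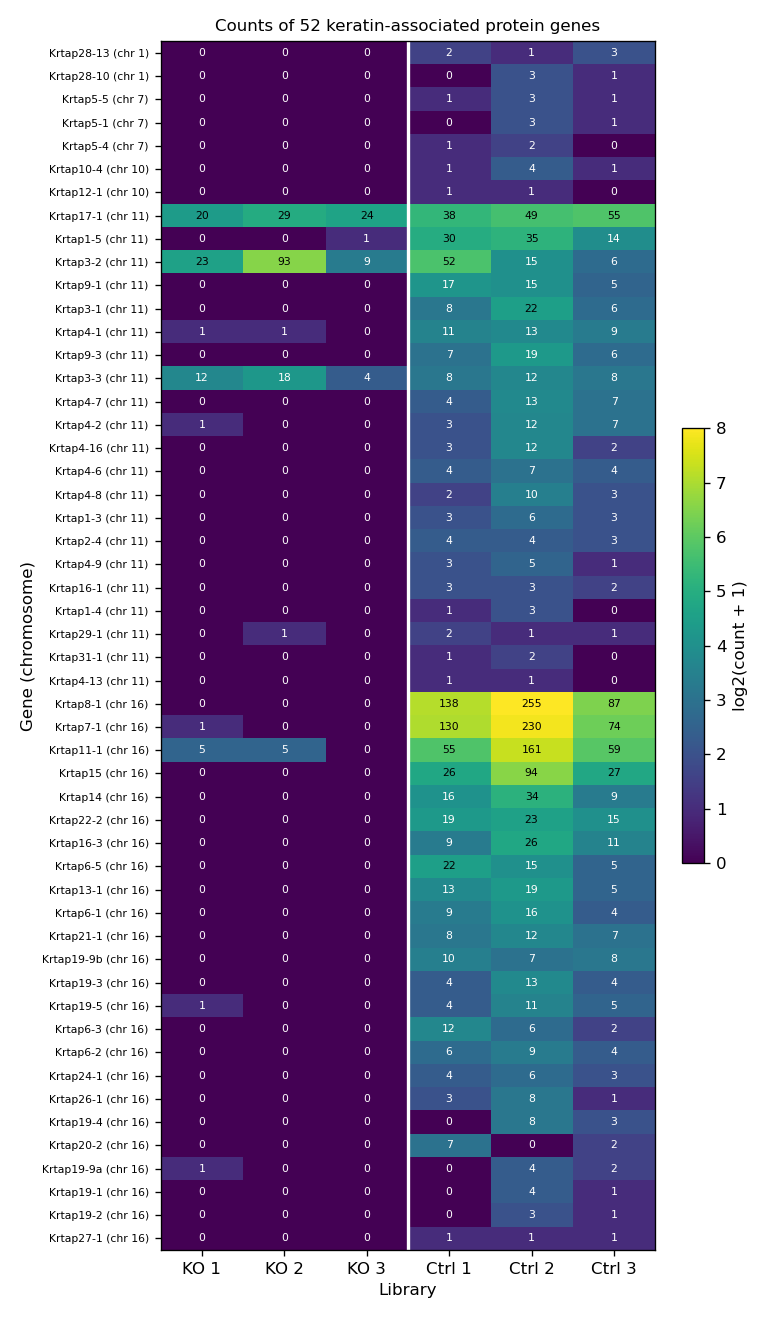
Counts in each library (columns, 3 knockout then 3 control) for the 52 genes with any count (rows, by chromosome and then by control counts); numbers are counts and colour is log2(count + 1). Outside Krtap17-1, Krtap3-2 and Krtap3-3 on chromosome 11, no knockout cell holds more than the 5 counts of Krtap11-1.

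The summed level of all 57 genes was 2.75, 5.13 and 1.38 CPM in knockouts 1, 2 and 3, against 30.4, 59.1 and 19.2 CPM in controls 1, 2 and 3. Every knockout lay below every control. The means were 3.09 ± 1.90 CPM in the knockouts and 36.3 ± 20.6 CPM in the controls (SD, n = 3 each), with the controls 11.8-fold above the knockouts. By counts over the unscaled total of each library, control 2 was the highest of the controls for 45 of the 52 genes, control 1 for 6 and control 3 for 1. Among the 52 genes with a count, 38 had every knockout below every control, against 20.2% of all identifiers with any count.

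Tests over all genes reached few members, because most have too few counts to pass the filter. Of 15513 genes tested, 18.8% were called lower and 17.4% higher in the knockouts. Among the 57 family members 9 were tested, of which 7 were called lower, 0 higher and 2 were not called. More members passed the filter with some libraries left out. Without knockout 1, 2 and 3, 12, 13 and 13 of 15 members tested were called lower, against 10.8%, 11% and 17.4% of all genes tested. Without control 3 it was 11 of 14, against 10.9% of all genes tested. A member enters the test mostly through its control counts, so these shares say nothing about the family as a whole. The other 48 were not tested, 43 of them with a count, and the largest control total among these was the 59 counts of Krtap14.

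Without the filter on low counts all 52 members with a count entered edgeR's test. Then 33 were called lower, 0 higher and 19 were not called, with 11.1% of all 25742 identifiers called lower and 11.1% higher. The median log2 fold change of the 52 was -5.02, against -0.08 for all identifiers. Fitted values of genes at 0 depend on the prior count, so the folds given below for such genes are lower bounds against a floor of 3 counts over the 3 knockouts together (0.0376 CPM). The members called had at least 8 control counts, and the members not called that the filter had removed had at most 11.

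Among the high glycine-tyrosine genes, Krtap8-1 and Krtap7-1 carried most of the signal, and the 2 together made 37.5% of all control counts of the family. Krtap8-1 (ENSMUSG00000059632, chromosome 16, 89487379 to 89487952, minus strand) had 0, 0 and 0 counts in the knockouts and 138, 255 and 87 counts in the controls. With 7.17 ± 4.49 CPM in the controls (SD, n = 3), it was at least 183-fold lower in the knockouts (edgeR's adjusted p = 0.00281). Krtap8-1 was therefore the most abundant member in the controls and undetected in every knockout. Krtap7-1 (ENSMUSG00000056706, chromosome 16, 89507703 to 89508323, minus strand) had 1, 0 and 0 counts in the knockouts and 130, 230 and 74 counts in the controls. The control level was 498 times the knockout level by pooled counts (exact binomial 95% interval 88.8 to 19698, counting error only, edgeR's adjusted p = 0.00141). Per kilobase of exon both also led the family, with 12.5 CPM per kb for Krtap8-1 and 10.4 CPM per kb for Krtap7-1 in the controls.

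Krtap22-2 (ENSMUSG00000095992, chromosome 16, 89010395 to 89010759, minus strand), of the same class, had 0, 0 and 0 counts in the knockouts and 19, 23 and 15 counts in the controls. It was at least 21.8-fold lower in the knockouts (edgeR's adjusted p = 0.00337), and its controls were close together. Krtap16-3, also of this class, had no count in the knockouts and 9, 26 and 11 in the controls. The 4 members of family 6 (Krtap6-1, Krtap6-2, Krtap6-3 and Krtap6-5) had no knockout count, and Krtap6-5 led them with 22, 15 and 5 counts in the controls. Family 19 was low throughout. Its leading member, Krtap19-9b, had no count in the knockouts and 10, 7 and 8 in the controls, the highest value in any control was the 13 counts of Krtap19-3 in control 2, and 2 members had a single knockout count. Krtap19-5 had 1, 0 and 0 counts in the knockouts and 4, 11 and 5 in the controls, and the pseudogene Krtap19-9a had 1, 0 and 0 in the knockouts and 0, 4 and 2 in the controls. Krtap21-1 had no count in the knockouts and 8, 12 and 7 in the controls, and Krtap20-2 had none in the knockouts and 7, 0 and 2 in the controls. The whole class summed to 2, 0 and 0 counts in the knockouts and to 378, 638 and 233 counts in the controls, which was 51.3% of the family's control counts and 0.800% of its knockout counts.

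The high sulfur genes of chromosome 16 were led by Krtap11-1 (ENSMUSG00000091212, chromosome 16, 89570176 to 89571183, minus strand), which stands alone in its numbered family. It had 5, 5 and 0 counts in the knockouts and 55, 161 and 59 counts in the controls. Its level was 0.129 ± 0.113 CPM in the knockouts and 4.12 ± 3.08 CPM in the controls (SD, n = 3 each), a log2 fold change of -4.97 (SE 0.83, edgeR's adjusted p = 0.00510), which was -4.37 without knockout 3 and -4.16 without control 2. It was the only member of chromosome 16 with more than 1 knockout count. Krtap15 (ENSMUSG00000022931, chromosome 16, 88820215 to 88829844, plus strand) had 0, 0 and 0 counts in the knockouts and 26, 94 and 27 in the controls, at least 56.2-fold lower in the knockouts (edgeR's adjusted p = 0.00818). Part of Krtap15, 201 exon bases, overlaps the lincRNA 4930553J12Rik on the same strand. That lincRNA has no row in the deposited count table, so counts of Krtap15 may include reads from it. Its neighbour Krtap14 had no count in the knockouts and 16, 34 and 9 in the controls, at least 22.5-fold lower, and was not tested. Krtap13-1 had no count in the knockouts and 13, 19 and 5 in the controls. Krtap24-1, Krtap26-1 and Krtap27-1 had none in the knockouts and at most 8 in any control. Over all 25 genes of chromosome 16 the knockouts held 13 counts and the controls 1801.

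On chromosome 11 the high sulfur gene Krtap1-5 (ENSMUSG00000047253, 99579976 to 99581016, minus strand) had 0, 0 and 1 counts in the knockouts and 30, 35 and 14 in the controls. The control level was 90.6 times the knockout level by pooled counts (exact binomial 95% interval 15.8 to 3622, counting error only, edgeR's adjusted p = 0.00290). Its relatives Krtap1-3 and Krtap1-4 had no knockout count and at most 6 in a control, and Krtap2-4 had none in the knockouts and 4, 4 and 3 in the controls. Apart from Krtap17-1, described below, the ultra-high sulfur genes of this chromosome each had at most 2 counts over the 3 knockouts and 37 over the 3 controls. The highest of family 4, Krtap4-1, had 1, 1 and 0 counts in the knockouts and 11, 13 and 9 in the controls, 18.9 times the knockout level by pooled counts (exact binomial 95% interval 4.84 to 163). Krtap9-1 had no count in the knockouts and 17, 15 and 5 in the controls, and Krtap9-3, a high sulfur member by its codons, had none in the knockouts and 7, 19 and 6 in the controls. Of the remaining high sulfur genes there, Krtap29-1 had 0, 1 and 0 counts in the knockouts and 2, 1 and 1 in the controls, and Krtap31-1 had none in the knockouts and 1, 2 and 0 in the controls.

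Families 5, 10 and 12, which are among those known from the cuticle in human hair, were near the limit of detection in the controls too. The 5 genes of chromosome 7, all of family 5, summed to 0 counts in the knockouts and 12 in the controls, led by Krtap5-5 with 1, 3 and 1 control counts. Krtap10-4 had no count in the knockouts and 1, 4 and 1 in the controls, and Krtap12-1 had none in the knockouts and 1, 1 and 0 in the controls. Krtap28-10 and Krtap28-13 on chromosome 1 summed to 0 counts in the knockouts and 10 in the controls. At these counts a difference for any single gene of these was not detectable at this depth.

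The genes Krtap17-1, Krtap3-2 and Krtap3-3 kept counts in all 3 knockouts, and their separate description was chosen after their values were seen. Krtap17-1, an ultra-high sulfur gene that stands alone in its numbered family, had 20, 29 and 24 counts in the knockouts and 38, 49 and 55 in the controls. Its level was 0.910 ± 0.0897 CPM in the knockouts and 2.04 ± 0.364 CPM in the controls (SD, n = 3 each), and the groups did not overlap. The log2 fold change was -1.16 (SE 0.28, edgeR's adjusted p = 0.0167), and the call was lost without knockout 1 (edgeR's adjusted p = 0.0567) and without control 3 (0.0570). Within each group its libraries were close together.

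Krtap3-2, a high sulfur gene, had 23, 93 and 9 counts in the knockouts and 52, 15 and 6 in the controls. Its level was 0.973, 3.25 and 0.327 CPM in the knockouts and 2.24, 0.715 and 0.236 CPM in the controls, and the groups overlapped. Knockout 2 and control 1 were the high libraries. The log2 fold change was 0.52 (SE 0.93, edgeR's adjusted p = 0.683), and it was -0.71 without knockout 2 (edgeR's adjusted p = 0.590) and 1.71 without control 1 (edgeR's adjusted p = 0.239). Krtap3-3 had 12, 18 and 4 counts in the knockouts and 8, 12 and 8 in the controls, with a log2 fold change of 0.07 (SE 0.55, edgeR's adjusted p = 0.932) and overlapping groups. The sign of the Krtap3-3 change turned under several alternatives. Krtap3-1, the next gene of the same family, had 0, 0 and 0 counts in the knockouts and 8, 22 and 6 in the controls, at least 13.8-fold lower in the knockouts.

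**Figure D2:**
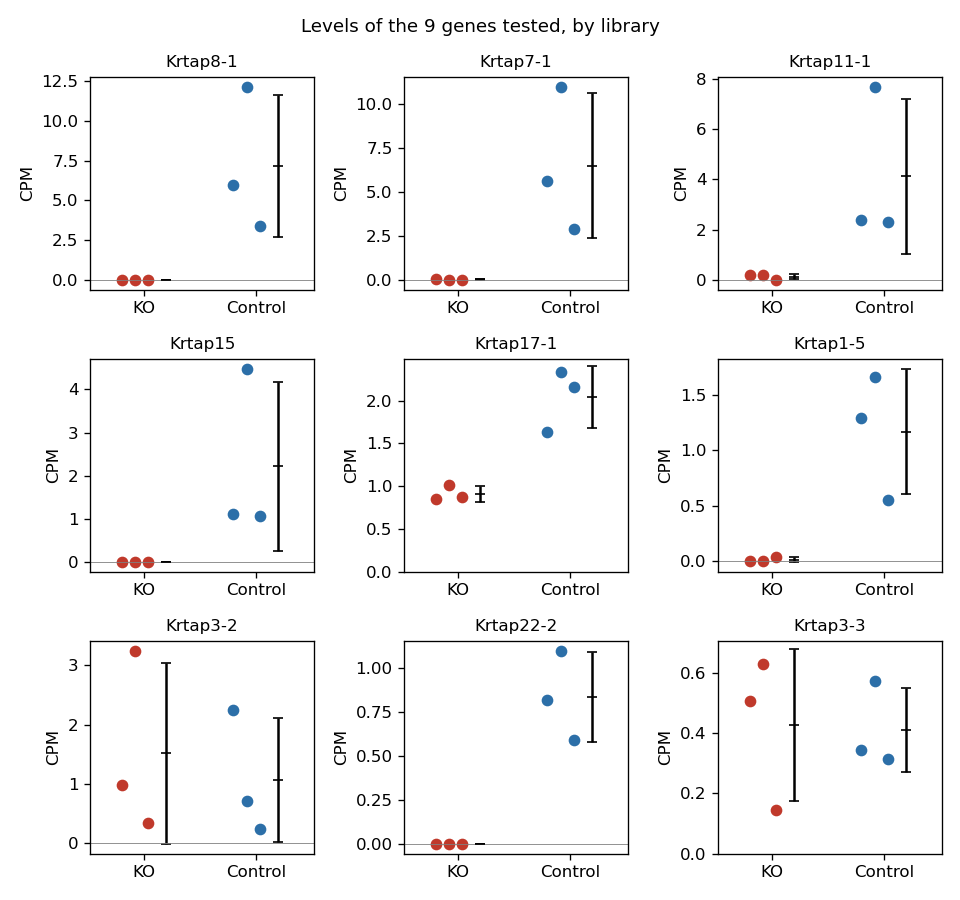
CPM in each library for the 9 genes that entered the test, knockout (red) left of control (blue), each panel with its own linear axis; the bars to the right of the points are mean ± SD (n = 3 each). In 7 panels all knockouts lie below all controls, as in 26.5% of all genes tested, while Krtap3-2 and Krtap3-3 overlap between groups. The genes shown entered the test mostly through their control counts.

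The share of sequence held in common with other genes differed between these genes. How the paired reads themselves were assigned was not examined. A window of 100 bases, the read length, was counted as shared when it occurs in an annotated transcript of another gene. Krtap3-2 and Krtap3-3 shared 234 windows with each other, 25.1% of those of Krtap3-2 and 36.7% of those of Krtap3-3, and none with Krtap3-1. Krtap17-1 shared none. Counts of Krtap3-2 and Krtap3-3 are thus uncertain between the pair. Over the family 34 of 57 genes shared no window, and Krtap4-13 was the only member with most windows shared (62.8%). Transcripts of Krtap3-2 and Krtap3-3 were identical at 84.8% of aligned bases, and those of Krtap3-1 and Krtap3-2 at 80.5%. Their windows before the start were less alike, at 66.8% for Krtap3-2 and Krtap3-3, 65.6% for Krtap3-1 and Krtap3-2, and 70.2% for Krtap3-1 and Krtap3-3.

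The 3 genes made up 92.8% of the family's knockout counts and 9.97% of its control counts. They summed to 2.33, 4.89 and 1.34 CPM in the knockouts and to 4.22, 3.62 and 2.71 CPM in the controls, overlapping between groups. The other 54 genes summed to 10, 7 and 1 counts in the knockouts and to 609, 1165 and 420 counts in the controls, which was 0.423, 0.244 and 0.0363 CPM against 26.2, 55.5 and 16.5 CPM. The whole high sulfur class summed to 1.69, 4.08 and 0.508 CPM in the knockouts and 10.1, 21.0 and 5.94 CPM in the controls. For the whole ultra-high sulfur class it was 0.930, 1.05 and 0.871 CPM in the knockouts and 4.05, 7.58 and 4.05 CPM in the controls. The 3 genes were set apart for their knockout counts, so lower knockout sums without them follow from that choice. The high sulfur genes without Krtap3-2 and Krtap3-3 summed to 5, 6 and 1 counts in the knockouts and 175, 413 and 137 in the controls, and the ultra-high sulfur genes without Krtap17-1 to 2, 1 and 0 counts in the knockouts and 56, 110 and 48 in the controls.

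**Figure D3:**
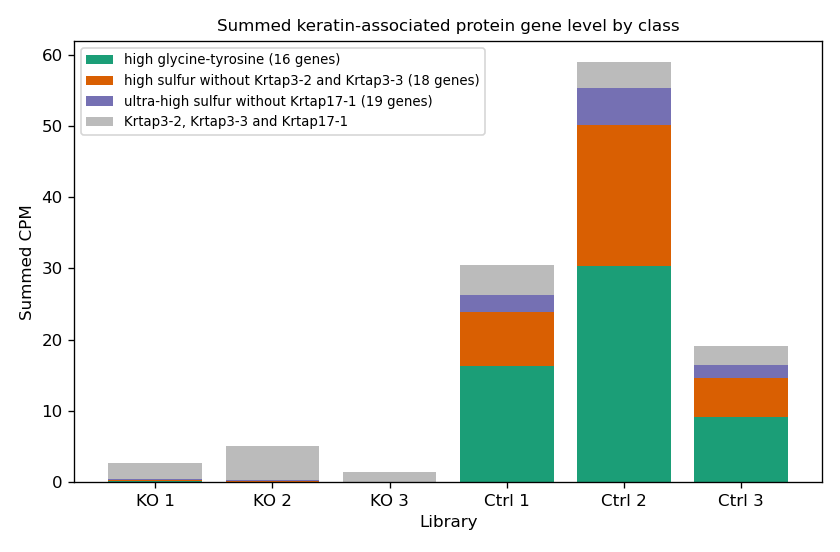
Summed CPM of the family in each library, knockout libraries left, split by composition class with Krtap3-2, Krtap3-3 and Krtap17-1 drawn apart in grey; Krtap19-9a, which has no class, is not drawn. The knockout bars, at 2.75, 5.13 and 1.38 CPM over all genes, are nearly all grey.

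The 3 genes lay at the 2 ends of the chromosome 11 cluster. In order of position along chromosome 11, Krtap3-3 (99550130 to 99550865) and Krtap3-2 (99555823 to 99556853) were numbers 1 and 2 of 23, and Krtap17-1 (99993234 to 99993994) was number 23, all on the minus strand. The 20 genes between them summed to 2, 2 and 1 counts in the knockouts and to 107, 183 and 73 in the controls. The hair keratin genes just beyond Krtap17-1 did not share its counts. Krt33a had 1, 2 and 1 counts in the knockouts and 69, 201 and 85 in the controls, and Krt33b and Krt34 had at most 1 count in a knockout library. On the other side, Krt39 and Krt40 were near 0 in both groups, with at most 2 counts in a knockout and 4 in a control.

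**Figure D4:**
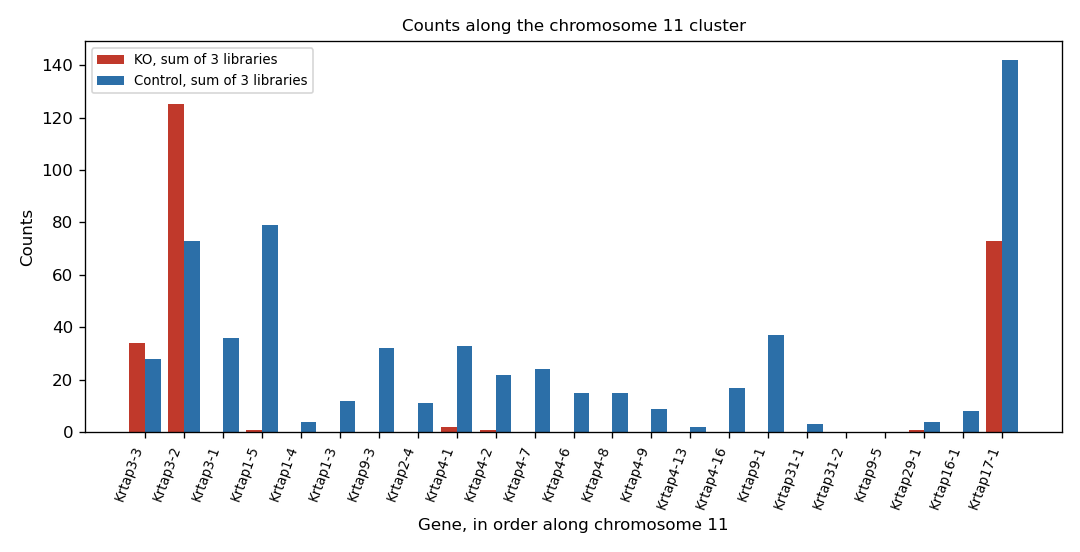
Counts summed over the 3 knockout libraries (red) and the 3 control libraries (blue) for the 23 genes of the chromosome 11 cluster, in order of position (spacing not to scale). Knockout bars stand at both ends (34 and 125 counts for Krtap3-3 and Krtap3-2, 73 for Krtap17-1), with at most 2 counts for any gene between.

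Other genes of the hair shaft, from lists of follicle and skin genes, were lower in the same libraries. Of 16 hair shaft keratins listed, 15 were in the table and 11 were tested, of which 9 fell, 0 rose and 2 were not called (median log2 fold change -5.04, against -0.02 for all genes tested). Krt32, a type I hair keratin, averaged 9.26 ± 2.16 CPM in the knockouts and 26.7 ± 13.8 CPM in the controls (log2 fold change -1.52, edgeR's adjusted p = 0.0161), and Krt35 averaged 0.0606 ± 0.0716 CPM in the knockouts and 19.3 ± 10.8 CPM in the controls (log2 fold change -8.16, edgeR's adjusted p = 0.00114). The list summed to 11.97, 15.3 and 11.03 CPM in the knockouts and 64.0, 102 and 53.1 CPM in the controls. Of the 6 other hair shaft genes 5 fell and 1 was not called, Prr9 (-4.94) and the calcium-binding protein gene S100a3 (-3.82) having the highest mean levels. That list summed to 2.49, 2.37 and 2.72 CPM in the knockouts and 25.3, 60.2 and 40.1 CPM in the controls.

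The family was also set against the hair shaft keratins of the same library. Its summed level was 0.230, 0.335 and 0.125 of the hair shaft keratin level in the knockouts and 0.475, 0.579 and 0.362 in the controls. Without Krtap3-2, Krtap3-3 and Krtap17-1 these ratios were 0.0353, 0.0159 and 0.00329 in the knockouts and 0.410, 0.544 and 0.311 in the controls, and every knockout lay below every control in both ratios. Most of the hair keratin level left in the knockouts was Krt32, with 202, 335 and 208 counts in the knockouts and 974, 479 and 388 in the controls. The knockout ratios therefore rest largely on Krt32. The 3 genes were left out for their knockout counts, while Krt32 was kept in. The second ratio is thus lowered in the knockouts by that choice. Neither ratio shows that the family fell further than the other hair keratins. The family and keratin levels come from the same libraries, and the ratios were not tested.

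**Figure D5:**
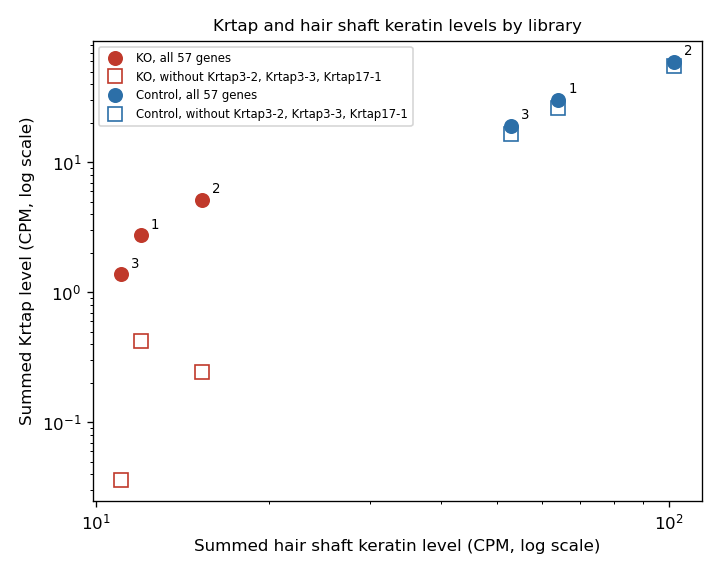
Summed level of the family (vertical) against that of 15 hair shaft keratins (horizontal) in each library, both in CPM on log axes; filled circles are all 57 genes and open squares leave out Krtap3-2, Krtap3-3 and Krtap17-1, and the numbers name the mouse. Knockouts lie at 11.03 to 15.3 CPM of hair shaft keratin and controls at 53.1 to 102 CPM.

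Markers of other follicle compartments and skin cells were read against the 18.8% of all genes tested that were lower and the 17.4% that were higher. All 8 tested genes of the inner root sheath, the layer that moulds the growing shaft, fell (9 listed), with Krt71 at -6.83 and Tchh, trichohyalin, at -1.47 on the log2 scale. The list summed to 16.4, 19.2 and 23.2 CPM in the knockouts and 86.3, 302 and 165 CPM in the controls. Most of the knockout sums was Tchh alone, with 14.8, 17.6 and 20.7 CPM in the knockouts and 29.8, 76.3 and 40.6 CPM in the controls. Among 10 tested regulators of the hair matrix 3 fell, 1 rose and 6 were not called (1 fell without knockout 3 or without control 2, and none rose without knockout 1 or 2), the list summing to 222 to 258 CPM in the knockouts and 217 to 236 CPM in the controls. The members with the highest levels were Ovol1 (log2 fold change 0.56, edgeR's adjusted p = 0.0618) and Cux1 (-0.29, adjusted p = 0.103). Together they made most of the list's sum in each library, so the sums say little about the other regulators. Hoxc13, a homeobox factor known to act on hair keratin genes, had 464, 388 and 377 counts in the knockouts and 187, 435 and 495 in the controls (log2 fold change -0.04, edgeR's adjusted p = 0.931), while Lef1, a mediator of Wnt signals in the hair matrix, fell by 2.20 on the log2 scale (edgeR's adjusted p = 0.0237), with knockout 1 at 1.35 CPM just above control 1 at 1.29 CPM. Shh, a signal made by the growing bulb, had 0, 0 and 0 counts in the knockouts and 1, 15 and 55 in the controls, and was not tested. The other regulators called were Msx2 (log2 fold change -1.32) and Foxq1 (-0.62), both lower, and Dlx3 (1.03, edgeR's adjusted p = 0.0187), the only one higher. Hoxc13, Lef1, Shh, Msx2, Foxq1 and Dlx3 lay outside the rule for named genes, and were picked with their values in view.

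Of 8 outer root sheath and bulge genes 1 fell, 2 rose and 5 were not called (median log2 fold change 0.06), shares near those of all genes tested. Krt15, a keratin of the bulge, fell by 0.93 on the log2 scale, but the list held no lower call without knockout 1, 2 or 3 or without control 1 or 2, and no higher call without knockout 1 or control 3. Cd34, a surface marker of bulge cells, stood at 0.33 (not called), with list sums of 2326 to 3534 CPM in the knockouts and 3685 to 6277 CPM in the controls. Most of these sums was Krt15 alone, with 2748, 2466 and 1732 CPM in the knockouts and 4458, 5583 and 3193 CPM in the controls. The sums therefore say little about the rest of the list. Of 5 tested dermal papilla genes 2 fell (4 without control 1) and 3 were not called, among them Rspo3 (-3.95, called) and Hhip (0.88, not called), with 2 of the 8 listed at 0 in all knockouts and sums of 4.22 to 7.44 CPM in the knockouts and 14.4 to 17.5 CPM in the controls. All 5 melanocyte genes fell (3 without knockout 2), with Dct at -3.24 and Tyrp1 at -2.32, and sums of 11.04 to 21.3 CPM in the knockouts and 50.2 to 179 CPM in the controls. Of 6 sebaceous gland genes 3 fell (5 without knockout 1) and 3 were not called, Far2 at -1.66 and Scd1 at -0.52 (not called), with sums of 466 to 903 CPM in the knockouts and 1022 to 1406 CPM in the controls. All 4 T cell genes fell, with Trdc at -1.75 and Cd3g at -1.99, and sums of 32.0 to 39.7 CPM in the knockouts and 80.3 to 185 CPM in the controls. Of 5 dermal fibroblast genes 2 fell (1 without knockout 1, knockout 2 or control 3) and 3 were not called, Col3a1 (-0.47) and Col1a2 (-0.44) among these 3, with sums of 34.0 to 45.5 CPM in the knockouts and 27.3 to 87.6 CPM in the controls. Of 5 basal keratinocyte genes 1 rose and 4 were not called, a share near that of all genes tested, and no gene of that list was called without knockout 1, knockout 2 or control 3. Of 4 suprabasal genes 3 rose and 1 was not called (1 rose without knockout 1), with Krt10 at 1.16 and Krt1 at 1.77. The basal list summed to 13548 to 18160 CPM in the knockouts and 13024 to 16954 CPM in the controls, and the suprabasal list to 24661 to 39417 CPM in the knockouts and 9685 to 13609 CPM in the controls. The part of these lists in the change of the family was not tested.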

How the data were processed

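Whole-number counts per gene, 1 column per library, were deposited by the authors. The submitters' processing notes name GRCm38, Cuffdiff 1.3.0, featureCounts 1.4.6 and TopHat 1.3.3. How these were set, whether strand was used and how multiply mapping reads were counted is not given in the sources used here, so reads of near-identical members may be split or lost. Each column was matched to a mouse by its name. Reads were paired and 100 bases long, per the labels.

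Differential expression was computed on all identifiers with edgeR 4.0.16 under R 4.3.3: TMM factors, filterByExpr by group, robust dispersion and quasi-likelihood fits, group as the only term, 3 against 3 libraries. A gene is said to have fallen or risen at an adjusted p under 0.05 (Benjamini-Hochberg over all genes tested). CPM uses the same factors. SE was derived from the quasi-likelihood test, as the size of the log2 fold change, knockout over control, over the square root of the F statistic. Genes that failed the filter are given by their counts. The script was tested on simulated data. Alternatives were DESeq2 1.42.0, limma-voom (limma 3.58.1), other factors and filters, a replicate block and leaving out each library.

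The members and lists were chosen with earlier results of these data known. Named members were those called, the most abundant member of each numbered family, those tested and not called, and those opposite in sign to the median; Lama3 and the 2 most abundant tested genes of each other list were also named. The second members of a numbered family that were not tested, and the neighbours Krt33a, Krt33b, Krt34, Krt39, Krt40 and Krt23, were added with their values in view. The regulators Hoxc13, Lef1, Shh, Msx2, Foxq1 and Dlx3 were added in the same way. The labels name separate mice, and no pair of columns was identical. Intervals and floors cover counting error only.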

Additional observations from a re-analysis of the deposited data

How the results depend on the processing

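The log2 difference in summed family level (-3.60, knockout minus control) lay between -4.06 and -3.11 when each library was left out, and moved by less than the spread between replicates with DESeq2 size factors or upper-quartile factors. The number of members called lower was 7, and it was 33 without the filter on low counts and between 7 and 13 with each library left out (12, 13 and 13 without knockout 1, 2 and 3, 11 without control 3), where the filter passed 9 to 15 members; no member was called higher under any alternative run. Over all genes tested, 10.8% to 17.4% were called lower with each library left out. DESeq2 called 7 members lower and 0 higher. With at least 10 counts, 3, 3 and 1 members were detected in knockouts 1, 2 and 3 and 15, 25 and 8 in controls 1, 2 and 3. The log2 fold change of Krtap3-2 was between -0.71 (without knockout 2) and 1.71 (without control 1) with each library left out. That of Krtap3-3 was -0.081 with upper-quartile factors, -0.12 with limma-voom, -0.029 with the replicate block, -0.05 without knockout 1, -0.34 without knockout 2, -0.04 without control 1 and -0.10 without control 3, and at most 0.49 (without knockout 3). The cause was not tested. Krtap17-1 lost its call without knockout 1 or control 3 and kept its direction.

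With a filter of 1 CPM, 5 hair shaft keratins, 3 other hair shaft genes, 1 dermal papilla gene and 1 fibroblast gene were lower, since fewer genes were tested. Without a filter, 2 hair matrix regulators and 1 outer root sheath gene were higher, and 1 dermal papilla gene and 3 melanocyte genes lower. DESeq2 called 2 regulators and 2 basal keratinocyte genes higher, and limma-voom 1 outer root sheath gene. With each library left out, the lower calls were 9 to 12 for hair shaft keratins, 7 to 8 for the inner root sheath, 4 to 5 for other hair shaft genes, 1 to 3 for regulators, 0 to 1 for the outer root sheath, 2 to 4 for the dermal papilla, 3 to 5 for melanocytes, 3 to 5 for the sebaceous gland and 1 to 2 for fibroblasts; the higher calls were 0 to 2 for regulators, 0 to 2 for the outer root sheath, 0 to 2 for basal and 1 to 3 for suprabasal keratinocytes. With upper-quartile factors the median log2 fold change of all genes tested was -0.17, against -0.02 with TMM, and 3988 genes were lower and 1756 higher, against 2919 and 2693.

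Of the same-numbered pairs only the third deviated together (correlation of deviations -0.114, -0.0979 and 0.419), so the numbers were not taken to pair the mice. Among pairs of unlike number, knockout 2 and control 1 also deviated together (0.410), and knockout 1 and control 2 less so (0.214). Knockout 2 and control 3 deviated in opposite directions (-0.388). With the replicate block 7 members were called lower and 0 higher, and 2701 genes lower and 2422 higher over all genes.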

Other observations

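Krt23, a gene before the start of the chromosome 11 cluster (99477974 to 99493137, minus strand), was high in the same libraries as Krtap3-2. Krt23 is a keratin gene that is not a hair shaft keratin. It had 116, 192 and 42.7 CPM in the knockouts and 107, 44.9 and 37.6 CPM in the controls, and Krtap3-2 had 0.973, 3.25 and 0.327 CPM in the knockouts and 2.24, 0.715 and 0.236 CPM in the controls. Knockout 2 was the highest and control 3 the lowest of the 6 libraries for both genes, and they differed in the order of knockout 1 and control 1. Of the genes of this region that lie between them, Krt39 and Krt40 had at most 0.191 CPM in any library. Krtap3-3 had 0.507, 0.628 and 0.145 CPM in the knockouts and 0.345, 0.572 and 0.314 CPM in the controls, a different order, with control 2 above control 1 and knockout 3 the lowest. Over all genes tested, the deviations of knockout 2 and control 1 from their group means were also correlated (0.410). High values shared by these libraries are therefore not shown to be particular to Krt23 and Krtap3-2. The pair was picked with its values in view, and the relation was not tested.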
